A study of Rattus norvegicus with 6 samples.

Results

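The adhesion G-protein-coupled receptors were described here across the cell classes of the nucleus accumbens shell, the ventral striatal region tied to reward. Members were every symbol of the deposited feature list that starts with Adgr, which gave 25 symbols on 26 of 32883 features, since Adgrg7 is listed under 2 identifiers. All 26 features had at least 1 UMI (unique molecular identifier, 1 counted RNA molecule) in the nuclei kept. The rule for members uses names alone and no measured value.

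Receptors of this family carry a long extracellular region, a domain that cleaves the protein in itself, and the membrane-spanning part of a G-protein-coupled receptor. Binding of a neighbouring cell or of the matrix is thought to expose a tethered stretch that activates the receptor, which signals through G proteins. In brain the latrophilins (ADGRL) and the BAI receptors (ADGRB) are known from synapses, ADGRG1 and ADGRG6 from glial precursors and myelin, ADGRA2, ADGRL4 and ADGRF5 from blood vessels, and the ADGRE receptors from immune cells.

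The tissue came from adult Long-Evans rats of 90 to 100 days, with no treatment in the labels. There were 3 male and 3 female libraries, each a pool of shell punches from 4 animals of 1 sex (24 animals), and nuclei of frozen tissue were barcoded with a 10x Genomics droplet kit that reads the RNA's end. The replicate is thus a pool of 4 animals. P-values for sex below measure the spread between pools. Those for classes and for the interaction compare classes within each library, and measure how class differences vary from pool to pool. The label wording for library source split them into set A (male pool 1, female pool 3) and set B (male pools 2 and 3, female pools 1 and 2), a split whose meaning the labels do not state.

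After filtering, 34362 nuclei remained, 2807 to 14325 per library with 10776584 to 77380296 UMIs, and 213 barcodes occurred in more than 1 library. Gene totals of the set A libraries correlated at 0.992 (Pearson's r of log2 CPM across genes, where CPM is a gene's UMIs scaled to a common total), set B libraries at 0.966 to 0.984 and libraries of unlike sets at 0.931 to 0.955. Classes were rebuilt from marker genes without any Adgr gene, and 15 of them took a name ending in "-like" (20072 nuclei, 58.4%). The others were 10 numbered clusters (10185 nuclei) and 6 mixed clusters (4105 nuclei). The striatal identity showed in 7 marker genes of the projection cells, the medium spiny neurons (MSN), which summed to 5169 to 7393 CPM in D1 MSN-like nuclei. D1 MSN-like nuclei were named from 3 of 7 D1 markers, none among the cluster's 10 leading genes, with a summed level of 431.7 to 728 CPM against 85.2 to 189 in D2 MSN-like nuclei. The same D1 list summed to 293 to 551 CPM in astrocyte-like and 986 to 2950 in endothelial-like nuclei, so its level is not particular to neurons. D2 markers summed to 1403 to 1938 CPM in D2 MSN-like and 71.7 to 188 in D1 MSN-like nuclei. For class comparisons 11 classes had at least 10 nuclei in at least 4 libraries. Where values of single libraries follow, those of females and those of males are in the order of pools 1, 2 and 3, and pools with under 10 nuclei of a class are left out by name.

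Genes of neurons were also measured in glial and vascular nuclei. The summed level of 5 neuron genes (Rbfox3, Snap25, Syt1, Gad1, Gad2) was 5200 to 7075 CPM in D1 MSN-like nuclei, 1811 to 4062 in endothelial-like, 541 to 2619 in microglia-like, 432 to 2564 in oligodendrocyte-like, 1140 to 1888 in OPC-like (oligodendrocyte precursor) and 319 to 1222 in astrocyte-like nuclei. Its part in the levels of neuronal receptors in those classes was not tested.

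The sequences just upstream of 4 members are shown because these members had one class far above most others. For 19 of the 25 symbols RefSeq's GRCr8 table held a window (23 windows, 250 bases before to 50 after the start). Capitals mark AGGAA, the core that ETS-family factors bind, on either strand, in the first 3 windows. In Adgre1 they mark GAGGAAG, the longer form known from PU.1, which contains AGGAA.
Adgrl4, chr2:243014689-243014988, plus strand: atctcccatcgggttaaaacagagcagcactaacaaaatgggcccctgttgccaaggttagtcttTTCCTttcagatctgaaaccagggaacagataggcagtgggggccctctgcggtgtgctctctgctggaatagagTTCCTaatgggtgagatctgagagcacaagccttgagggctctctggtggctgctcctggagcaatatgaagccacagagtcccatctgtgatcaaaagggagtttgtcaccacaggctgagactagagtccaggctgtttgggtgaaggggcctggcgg
Adgrf5, chr9:25121188-25121487, minus strand: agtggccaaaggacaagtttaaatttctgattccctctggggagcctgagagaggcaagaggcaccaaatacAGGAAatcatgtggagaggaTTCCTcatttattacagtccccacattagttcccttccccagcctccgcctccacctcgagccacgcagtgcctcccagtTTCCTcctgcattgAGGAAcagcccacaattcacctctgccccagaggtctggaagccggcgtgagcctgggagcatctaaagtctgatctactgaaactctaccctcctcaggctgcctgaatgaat
Adgrg6, chr1:10773826-10774125, minus strand: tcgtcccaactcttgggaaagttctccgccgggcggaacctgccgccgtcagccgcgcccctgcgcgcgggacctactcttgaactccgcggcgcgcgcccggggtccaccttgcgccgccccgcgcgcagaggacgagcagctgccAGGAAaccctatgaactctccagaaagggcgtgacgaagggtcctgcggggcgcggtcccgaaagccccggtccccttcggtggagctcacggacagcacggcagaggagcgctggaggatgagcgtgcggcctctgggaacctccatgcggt
Adgre1, chr9:2329190-2329489, plus strand: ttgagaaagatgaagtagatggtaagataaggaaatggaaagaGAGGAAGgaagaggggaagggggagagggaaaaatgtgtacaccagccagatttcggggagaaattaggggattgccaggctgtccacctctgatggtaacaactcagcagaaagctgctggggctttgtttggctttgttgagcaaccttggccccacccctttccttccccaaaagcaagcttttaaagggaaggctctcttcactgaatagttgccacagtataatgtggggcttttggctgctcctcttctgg
AGGAA occurred 2 times in the Adgrl4 window, 4 times in Adgrf5 and 1 time in Adgrg6, but 67.3% of all 33469 windows of this length held it on some strand, and 17 of the 23 member windows. GAGGAAG occurred in 12.4% of all windows and in 3 member windows. The SOX-type letters ACAAAG occurred in 18.8% of all windows and in 2 member windows, and the Adgrg6 window held none. These matches describe letters only. In the same assembly Adgrg3, Adgrg1 and Adgrg5 are neighbours, as are Adgrl1 and Adgre5, Adgrl2 and Adgrl4, and Adgrf2 and Adgrf4.

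Nearly every adhesion receptor that could be tested differed between cell classes. Of the 26 features 16 passed the low-count filter, and 15 of these were called higher or lower in some class against the unweighted mean of the other 10 classes. A call needed an adjusted p under 0.05 (edgeR quasi-likelihood test, Benjamini-Hochberg over 10614 genes) and a log2 fold change of at least 1 in size. There were 30 calls of higher level, on 13 members, and 24 of lower level, on 12. Of these 54 calls 31 were kept under every alternative that gave a value, and 15 were lost with some library left out. Adgre4 was not called in any class. A gene that is high in 1 class alone can pass the filter through that class, so these counts describe the members and are not evidence about the family. In single classes 7.61% to 14.3% of all genes were called higher and 3.33% to 17.6% lower. The share of all genes called in at least 1 class was not counted, so the 15 of 16 has no such share beside it.

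**Figure D1:**
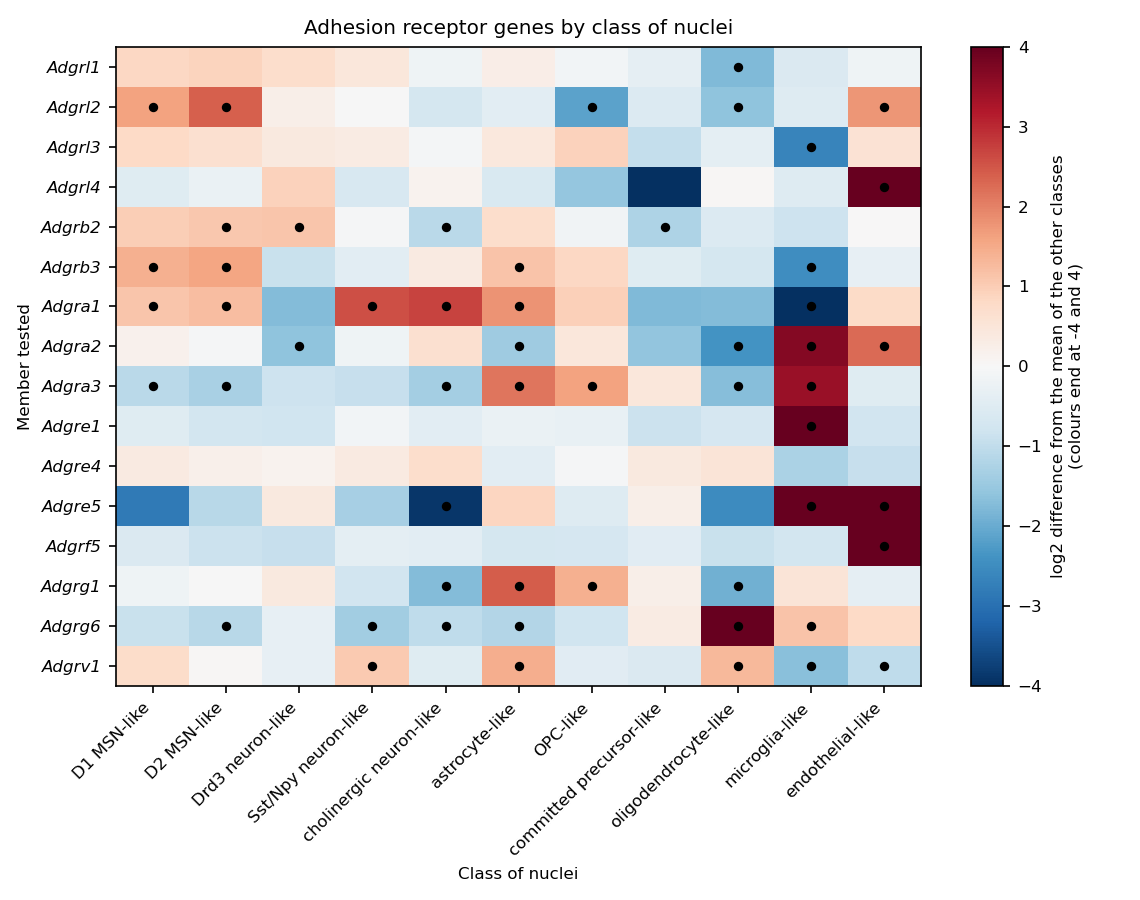
Log2 fold change of each tested Adgr gene (rows) in each of 11 classes (columns) against the mean of the other classes, as colour that ends at -4 and 4, with a black dot on called values. Adgrl4, Adgrf5 and Adgre5 peak in endothelial-like, Adgre1 in microglia-like and Adgrg6 in oligodendrocyte-like nuclei.

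Beside each count of members stands the share of all 10614 genes that met the same rule. In endothelial-like nuclei 5 of 16 members were higher, against 10.7% of all genes tested, and 1 was lower, against 3.33%. In microglia-like nuclei 5 were higher (11.8% of all genes) and 4 lower (17.6%). Astrocyte-like nuclei had 5 higher (14.3%) and 2 lower (12.5%), with a median log2 fold change of 0.35 over the 16 members and 0.01 over all genes. Oligodendrocyte-like nuclei had 2 higher (11.5%) and 5 lower (15.6%), with medians of -0.79 and 0.03. In OPC-like nuclei 2 were higher (10.1%) and 1 was lower (6.17%), and in committed oligodendrocyte precursor-like nuclei 0 were higher (7.68%) and 1 was lower (3.74%). For that count of 0 higher, edgeR had 0 members at an unadjusted p under 0.05 in this direction and DESeq2 called 0.

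D1 MSN-like nuclei had 3 members higher (11.3% of all genes) and 1 lower (8.41%), and D2 MSN-like nuclei 4 higher (11% of all genes) and 2 lower (8.88%). Drd3 neuron-like nuclei had 1 of each (7.61% and 9.4% of all genes). Sst/Npy interneuron-like nuclei had 2 higher (8.84%) and 1 lower (7.41%). Cholinergic neuron-like nuclei, the large acetylcholine interneurons, had 1 higher (10.3%) and 5 lower (7.82%). When only the 9 classes held by all 6 libraries entered, an alternative chosen after seeing the data, 27 of the calls in those classes were kept, 11 were lost and 9 appeared. The lost ones were Adgra1 in D1 and D2 MSN-like, Adgra2 in Drd3 neuron-like and astrocyte-like, Adgra3 in D1 MSN-like, Adgrb2 in D2 MSN-like, Adgrb3 in astrocyte-like, Adgrv1 in Sst/Npy interneuron-like and Adgrg6 in D2 MSN-like, astrocyte-like and cholinergic neuron-like nuclei. The calls that appeared were higher levels of Adgra2 in OPC-like (1.20) and cholinergic neuron-like nuclei (1.33) and of Adgrg3 in astrocyte-like nuclei. Lower levels appeared for Adgra1 in Drd3 neuron-like and oligodendrocyte-like nuclei, Adgrb3 in Drd3 neuron-like nuclei, Adgrl3 in committed precursor-like nuclei, and Adgrg3 in oligodendrocyte-like and Sst/Npy interneuron-like nuclei.

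Adgrl4 and Adgrf5 marked the vessel-lining nuclei. Adgrl4, an orphan receptor of endothelial cells, stood at 1136 CPM in female pool 1, 1118 in female pool 3, 769.9 in male pool 1, 983 in male pool 2 and 418 in male pool 3 in endothelial-like nuclei. The next of the tested classes by mean, Drd3 neuron-like, did not exceed 9.32 CPM in any library, so the groups were far apart. Adgrl4 was higher in endothelial-like nuclei by a log2 fold change of 8.46 (SE 0.18, edgeR adjusted p = 6.96e-45). Adgrf5, a receptor of endothelium and of lung surfactant control, stood at 606 and 709 CPM in female pools 1 and 3 and at 519.7, 1501 and 358 in males. Its level elsewhere among the tested classes was at most 23.6 CPM, and the log2 fold change was 6.68 (SE 0.18, adjusted p = 1.35e-42). Female pool 2 held 2 endothelial-like nuclei and was left out of this class.

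Adgrl4 was found in most endothelial-like nuclei. With each nucleus thinned to 1000 UMIs, 60.7% of them had an Adgrl4 UMI (73.8% unthinned, median 1469.5 UMIs). In D1 MSN-like nuclei, where no Adgrl4 would be looked for, the share was 0.23% (1.32% unthinned, median 5288 UMIs). Adgrf5 gave 56.4% against 0.501% in the same classes. Mural-like nuclei (159 nuclei, 3 libraries with at least 10) had 694 to 1054 CPM of Adgrl4 and 312 to 599 of Adgrf5. Endothelial marker genes summed to 2498 to 4020 CPM in these mural-like nuclei, against 3793 to 7245 in endothelial-like nuclei, and their part in the mural levels was not tested.

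Adgre5 was the third endothelial member. It encodes the leukocyte receptor CD97, which binds CD55 and THY1. Its level in endothelial-like nuclei was 151 CPM in female pool 1, 85.8 in female pool 3, and 80.8, 155 and 119.5 in males. In microglia-like nuclei it was 21 CPM in female pool 1, 14.3 in female pool 3, and 33.3, 36.1 and 0 in males. The endothelial values all lay above the microglial ones, which rest on 3 to 5 UMIs where they are above 0. Endothelial values rest on few UMIs too. Male pools 2 and 3 held 11 endothelial-like nuclei each. They had 18 and 16 Adgre5 UMIs over all their nuclei, which is only an upper limit on the counts behind these endothelial values. Log2 fold changes were 6.56 (SE 0.41, edgeR adjusted p = 2.74e-21) in endothelial-like and 4.13 (SE 0.64) in microglia-like nuclei. The microglial markers Cx3cr1, P2ry12 and Tmem119 were at 0 in endothelial-like nuclei, where the 11 genes of the microglial list summed to 50.5 to 158 CPM, against 4625 to 7471 in microglia-like nuclei. Cholinergic neuron-like nuclei had 0 Adgre5 UMIs, which allows up to 1.13 CPM over the class by counting error alone.

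Adgre1, which encodes the macrophage antigen F4/80, was a microglial gene here. It stood at 189 CPM in female pool 1, 124 in female pool 3, and 133, 469 and 196 in males. Male pool 2 stood above the other libraries, and each of them lay above every value of the other tested classes, which reached 23.6 CPM. The log2 fold change was 5.38 (SE 0.27, edgeR adjusted p = 7.27e-28). The thinned share of nuclei with an Adgre1 UMI was 17.8% in microglia-like (22.2% unthinned, median 1345 UMIs) and 0.288% in oligodendrocyte-like nuclei (0.603% unthinned, median 1714 UMIs).

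Adgra2 and Adgra3 also had their highest means of the 11 classes compared in microglia-like nuclei. Adgra2 is known as the co-receptor that, with RECK, lets WNT7 act on brain endothelium. It stood at 217.5 CPM in female pool 1, 90.3 in female pool 3, and 160, 168 and 228 in males in microglia-like nuclei. In endothelial-like nuclei Adgra2 stood at 50.5 and 115.5 CPM in female pools 1 and 3, and at 42.3, 0 and 59.7 in males, so the ranges of both classes overlapped through female pool 3. Log2 fold changes of Adgra2 were 3.68 (SE 0.29, edgeR adjusted p = 1.18e-17) in microglia-like and 2.26 (SE 0.38) in endothelial-like nuclei. The microglial value of Adgra2 was 2.41 within set A alone. Endothelial markers summed to 72.2 to 160 CPM in microglia-like nuclei, with Kdr at 0.

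Adgra3, a relative of Adgra2 with no settled ligand, stood in microglia-like nuclei at 168 CPM in female pool 1, 176 in female pool 3, and 266, 228.5 and 163 in males. In astrocyte-like nuclei its values were 90.1, 49.6 and 70.2 CPM in females and 93.1, 55.5 and 53.3 in males, below every microglial value. Log2 fold changes of Adgra3 were 3.46 (SE 0.23, edgeR adjusted p = 1.11e-21) in microglia-like, 2.13 in astrocyte-like and 1.62 in OPC-like nuclei. Oligodendrocyte-like nuclei were lower by -1.70.

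**Figure D2:**
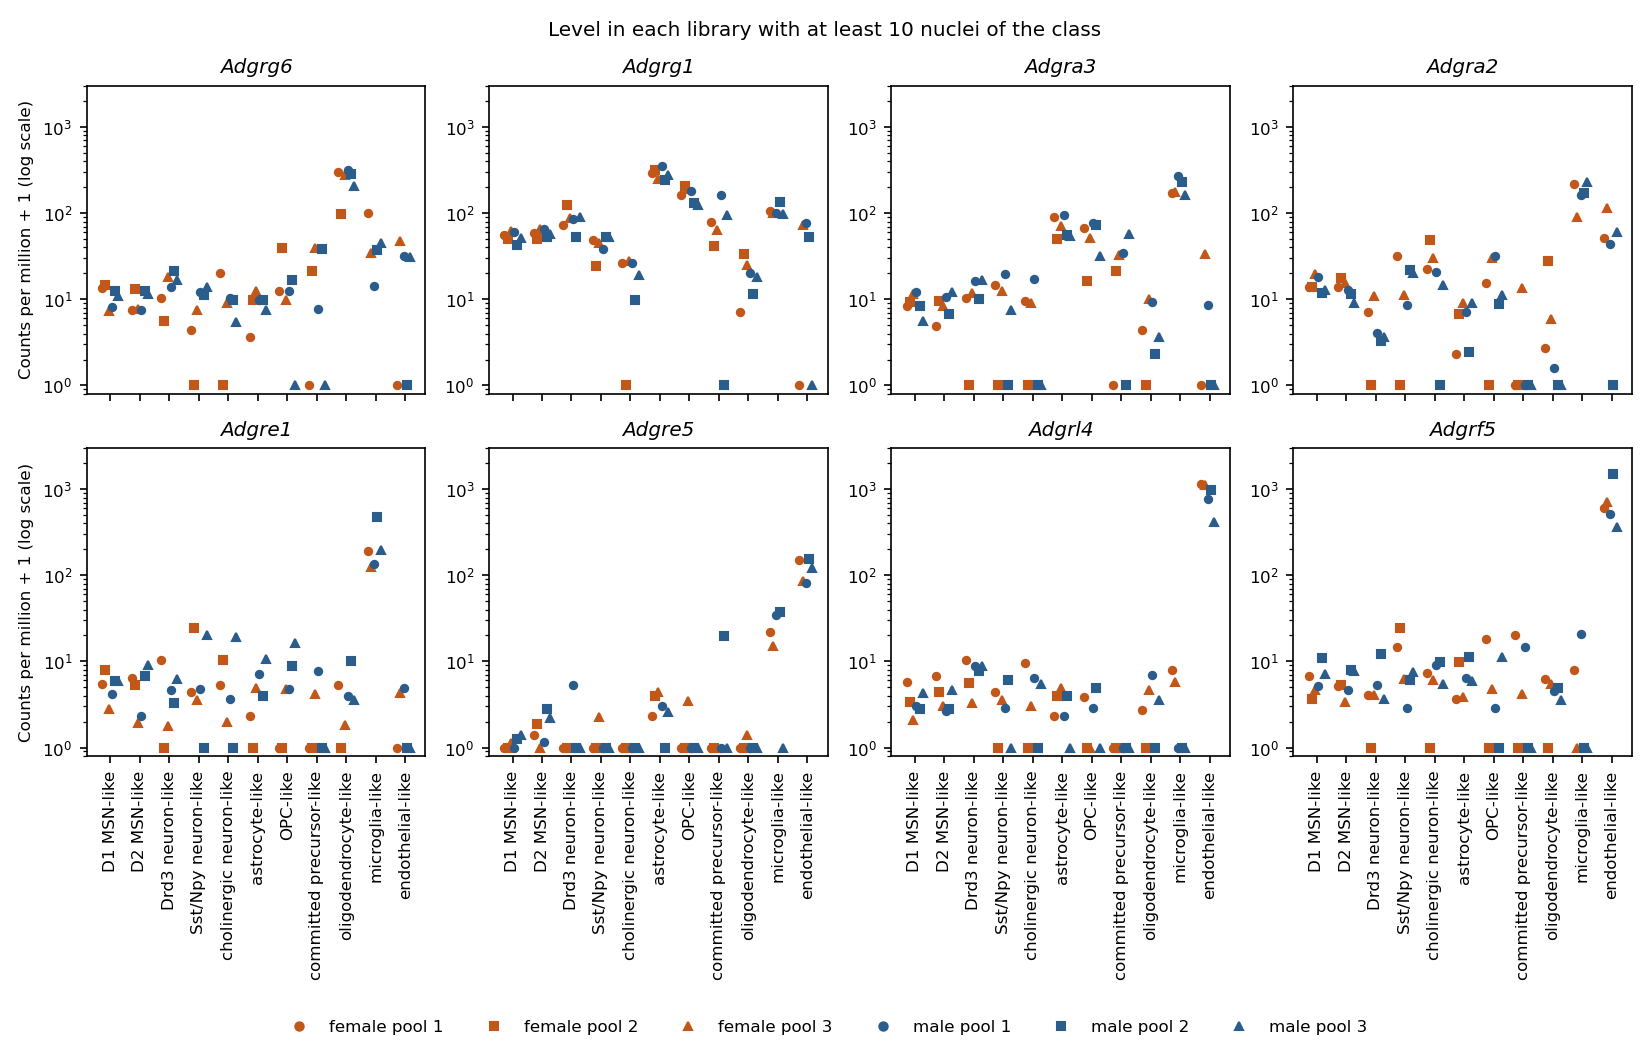
CPM plus 1 (log axis) of 8 Adgr genes in each class of nuclei, with 1 point per library of at least 10 nuclei, coloured by sex and shaped by pool number. Adgrl4 in endothelial-like nuclei runs from 418 to 1136 CPM, and Adgrg6 in oligodendrocyte-like nuclei from 98.0 to 317.

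Among myelin-forming nuclei Adgrg6 stood out. This receptor is required for Schwann cells to myelinate peripheral nerve. Its level in oligodendrocyte-like nuclei was 299, 98 and 277 CPM in females and 317, 286 and 208 in males. Female pool 2 was the lowest and rests on 18 UMIs from 94 nuclei. Microglia-like nuclei came next by mean, at 13.3 to 98.2 CPM, so the 2 ranges met at female pool 2. The log2 fold change was 4.41 (SE 0.13, edgeR adjusted p = 1.86e-41) in oligodendrocyte-like and 1.14 in microglia-like nuclei. The microglial call of Adgrg6 was lost without female pool 1 (0.65, adjusted p = 0.384), without male pool 3 (1.08, adjusted p = 0.0637) and within set A (0.43). The thinned share of nuclei with an Adgrg6 UMI was 22.4% in oligodendrocyte-like (35.1% unthinned, median 1714 UMIs) against 0.673% in Sst/Npy interneuron-like nuclei (2.77% unthinned, median 4423 UMIs).

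Along the oligodendrocyte lineage Adgrg6 was higher at the end and Adgrg1 at the start. OPC-like and oligodendrocyte-like nuclei were compared directly with library as a block, which addresses the start and end of the lineage. Of 9 members tested 4 were higher in OPC-like nuclei, against 14.9% of 8225 genes, and 2 were lower, against 11.7%. The median over the 9 members was 0.36 and over all genes -0.10. Adgrg6 stood at 11.6, 38.1 and 8.78 CPM in OPC-like nuclei of females and at 11.4, 15.9 and 0 in males, below every oligodendrocyte-like value. Its log2 fold change was -4.71 (SE 0.31, edgeR adjusted p = 3.13e-08). Committed precursor-like nuclei, the stage between, had 0 to 38.1 CPM of Adgrg6 over libraries, from at most 12 UMIs each.

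Adgrg1 moved the opposite way. It encodes a collagen and transglutaminase receptor known for keeping oligodendrocyte precursors dividing. OPC-like nuclei had 162, 206 and 191 CPM in females and 179, 131 and 123 in males. Oligodendrocyte-like nuclei had 6.05, 32.7 and 23.8 CPM in females and 19.4, 10.5 and 16.9 in males. No values overlapped, and the log2 fold change of Adgrg1 was 3.07 (SE 0.20, edgeR adjusted p = 3.11e-08).

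Adgrl1, Adgrb3 and Adgrl3, receptors of neuronal synapses, were also higher in OPC-like than in oligodendrocyte-like nuclei. The 5 neuron genes summed to 1280, 1325 and 1888 CPM in OPC-like nuclei of females and to 1761, 1675 and 1140 in males. In oligodendrocyte-like nuclei that sum was 432, 2564 and 1542 CPM in females and 797, 509.6 and 675 in males. The neuronal sum was thus higher in OPC-like nuclei in every library but female pool 2, and its part in these differences was not tested. Adgrb3 stood at 3329, 2474 and 3798 CPM in OPC-like nuclei of females and at 3157, 2934 and 2552 in males. In oligodendrocyte-like nuclei Adgrb3 stood at 707, 1443 and 1751 CPM in females and 1121, 733 and 681 in males, with no overlap. The Adgrb3 log2 fold change was 1.33 (SE 0.16, edgeR adjusted p = 1.15e-05).

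Adgrl3 stood at 1826, 1698 and 2315 CPM in OPC-like nuclei of females and 2454, 1905 and 1381 in males. Its oligodendrocyte-like values were 607, 784 and 1055 CPM in females and 865, 628 and 488.5 in males, all lower. The Adgrl3 log2 fold change was 1.15 (SE 0.11, adjusted p = 1.33e-06, edgeR). Adgrl1 had 54.9, 45.7 and 125.5 CPM in OPC-like nuclei of females and 103, 87.3 and 76.7 in males. In oligodendrocyte-like nuclei Adgrl1 had 15.6, 54.4 and 40.2 CPM in females and 27.6, 18.4 and 15.6 in males. Female pool 2 alone had the higher Adgrl1 value in oligodendrocyte-like nuclei, and the log2 fold change over all libraries was 1.53 (SE 0.21, adjusted p = 4.32e-05).

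Adgrv1, the very large receptor known from hair cells and from hearing loss, was lower in OPC-like nuclei. It had 60.7, 83.8 and 43.9 CPM there in females and 59.1, 43.7 and 25.6 in males. Oligodendrocyte-like nuclei had 143, 81.7 and 102 CPM of Adgrv1 in females and 126, 163 and 147 in males. Female pool 2 was again the exception, and the log2 fold change was -1.54 (SE 0.22, edgeR adjusted p = 4.48e-05). Adgrl2, Adgrb2 and Adgre4 did not pass, at -0.53, 0.36 and -0.59 (adjusted p = 0.116, 0.225 and 0.143).

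**Figure D3:**
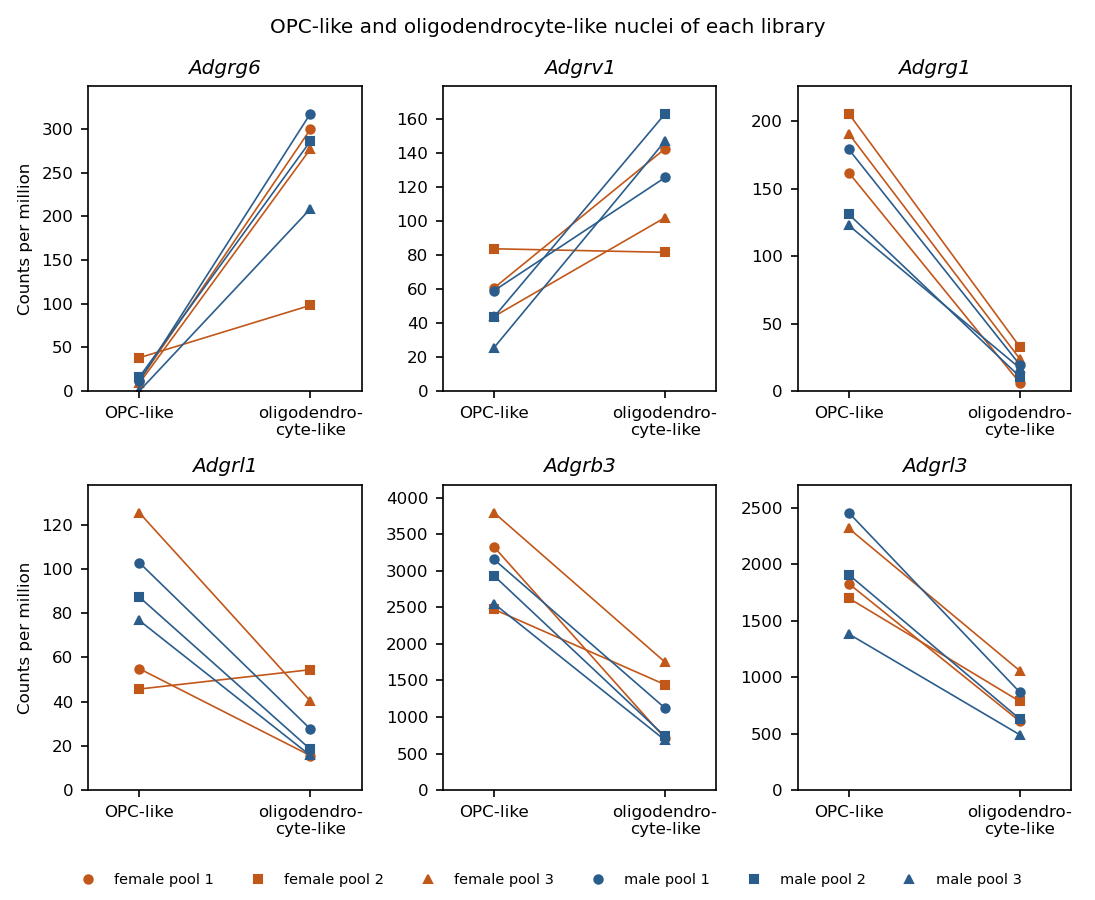
CPM (linear axis from 0) of the 6 called Adgr genes in OPC-like and oligodendrocyte-like nuclei, with a line joining the 2 classes of each library, coloured by sex and shaped by pool number. Adgrg6 rises and Adgrg1 falls from OPC-like to oligodendrocyte-like nuclei in 6 of 6 libraries, while female pool 2 runs against the other libraries for Adgrl1 and Adgrv1.

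Among the classes compared astrocyte-like nuclei led for Adgrg1. Its values there were 296, 318 and 251 CPM in females and 356, 242 and 273 in males, all above the highest OPC-like value of 206. Adgrg1 was higher against the mean of other classes by 2.42 (SE 0.10, edgeR adjusted p = 3.53e-33) in astrocyte-like and by 1.43 in OPC-like nuclei. It was lower in oligodendrocyte-like (-1.92) and cholinergic neuron-like nuclei (-1.73). The thinned share with an Adgrg1 UMI was 24.8% in astrocyte-like (45.2% unthinned, median 2115 UMIs) and 1.75% in oligodendrocyte-like nuclei (3.33% unthinned). Adgrv1 ran from 93.4 to 274 CPM in astrocyte-like nuclei with a median of 147, from 81.7 to 163 in oligodendrocyte-like and from 82.5 to 175 in Sst/Npy interneuron-like nuclei. These 3 ranges overlapped, and each class was called higher (1.45, 1.28 and 1.05). Outside the classes compared, 2 numbered clusters had Adgrv1 levels at or above these. Cluster 8 ran from 206 to 278 CPM, and cluster 6, which had 3 of the 7 MSN markers, from 152 to 278. Within set B alone the Adgrv1 values were under the fold limit in astrocyte-like (0.84) and Sst/Npy interneuron-like nuclei (0.55), and the latter was also under it without male pool 1 (0.91).

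The synaptic receptors had broad patterns rather than 1 class. Adgrb3, a BAI receptor that binds C1q-like proteins at synapses, ran from 3367 to 5254 CPM (median 4328) in D2 MSN-like and from 3143 to 4730 (median 3982) in D1 MSN-like nuclei. It was called higher in both (1.57 and 1.42) and lower in microglia-like nuclei (-2.49), where libraries ran from 84.2 to 1493 CPM. Adgrb3 was also called higher in astrocyte-like nuclei (1.14), under the fold limit within set A (0.87) and within set B (0.97). The highest microglial value came from female pool 3, and the neuron genes reached 2619 CPM in its microglia-like nuclei. Adgrl3, a latrophilin, was lower in microglia-like nuclei by -2.65 (12 to 594 CPM) and passed the fold limit nowhere else. Endothelial-like nuclei had the highest mean of Adgrl3 among the classes compared, 1262 to 3053 CPM, beside the neuronal signal given above, and its log2 fold change of 0.57 stayed under the fold limit.

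Adgrl2 was higher in both spiny neuron classes than in most of the other classes compared. In D2 MSN-like nuclei it stood at 266, 253 and 370.5 CPM in females and 346, 291 and 246 in males. D1 MSN-like nuclei had 154, 158 and 224 CPM of Adgrl2 in females and 211, 174 and 167 in males, below the D2 value of the same library in 6 of 6 libraries. Endothelial-like nuclei had 273 to 414 CPM (median 299), which overlapped with D2 MSN-like nuclei. Outside the classes compared, cluster 10, where no list had 3 markers, ran from 215 to 329 CPM of Adgrl2, and cluster 6, which had 3 of the 7 MSN markers, from 51.9 to 129. Against the mean of the other classes Adgrl2 was higher in D2 MSN-like (2.40, SE 0.11), endothelial-like (1.78) and D1 MSN-like nuclei (1.61), and lower in OPC-like (-2.14) and oligodendrocyte-like nuclei (-1.62; edgeR).

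Adgrl1 and Adgrb2 varied less. Among the classes compared Adgrl1 had its highest mean in D2 MSN-like nuclei (105 to 176 CPM), next to Drd3 neuron-like (109 to 167) and D1 MSN-like nuclei (102 to 167), and these ranges overlapped. Its single call was the low level in oligodendrocyte-like nuclei (-1.75, SE 0.12, edgeR). Adgrb2, a BAI receptor found on neurons and glia, ran from 101 to 135 CPM in Drd3 neuron-like, 82.9 to 115 in D2 MSN-like, 81.5 to 119 in D1 MSN-like and 64.2 to 105 in astrocyte-like nuclei. It was called higher in Drd3 neuron-like (1.12) and D2 MSN-like nuclei (1.09) and lower in cholinergic neuron-like (-1.08) and committed precursor-like nuclei (-1.25). Within set A alone the Adgrb2 values were under the fold limit in Drd3 neuron-like (0.93), D2 MSN-like (0.89) and cholinergic neuron-like nuclei (-0.95). The D2 MSN-like call was also lost without female pool 1 (0.97), without female pool 2 (0.9968) and by DESeq2 (0.98), and the cholinergic one without female pool 3 (-0.97).

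Interneuron-like nuclei led for Adgra1, an orphan receptor of nervous tissue, among the classes compared. Cluster 10, which is not one of them, had a higher mean of 45.02 CPM (6.93 to 70.2 over 6 libraries). By mean, some named class left out of the comparison stood above cluster 10 as well. Cluster 8, also outside the comparison, ran from 7.17 to 39.3 CPM of Adgra1. In Sst/Npy interneuron-like nuclei Adgra1 stood at 20.7, 11.8 and 27.1 CPM in females and 28.2, 20.6 and 25.8 in males. Cholinergic neuron-like nuclei had 47, 9.5 and 39.2 CPM of Adgra1 in females and 13.4, 0 and 9.05 in males, and overlapped with the Sst/Npy values on both sides. The log2 fold changes were 2.59 (SE 0.39, edgeR adjusted p = 1.23e-07) and 2.69. Microglia-like nuclei had 0 Adgra1 UMIs, which allows up to 4.35 CPM, and this class is part of the mean against which the others were set.

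The difference between the D1 and D2 types of spiny neuron was small for every member. The question is whether neurons of the direct and indirect pathways carry different receptors. Of 15 members tested 0 were higher and 0 lower past the fold limit, against 0.841% and 0.534% of 12359 genes. With edgeR 5 members had an unadjusted p under 0.05, and DESeq2 also called 0 past the limit. By the adjusted p alone 4 members passed, as did 15.1% of all genes. Adgrl2 was lower in D1 MSN-like nuclei by 0.72 on the log2 scale (log2 fold change -0.72, SE 0.035, adjusted p = 6.6e-17).

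Adgrv1 went the other way between these neurons. D1 MSN-like nuclei had 94.9, 75 and 103.5 CPM in females and 92.9, 99.7 and 99.8 in males. D2 MSN-like nuclei had 51.7, 51.6 and 52.5 CPM in females and 68.1, 67.5 and 74.3 in males. Every D1 value lay above every D2 value, and the log2 fold change of Adgrv1 was 0.65 (SE 0.065, edgeR adjusted p = 2.34e-09). Adgrb3 (-0.14, adjusted p = 3.56e-06) and Adgrl3 (0.12, adjusted p = 3.58e-04) differed by little, with the same direction in 6 of 6 libraries.

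**Figure D4:**
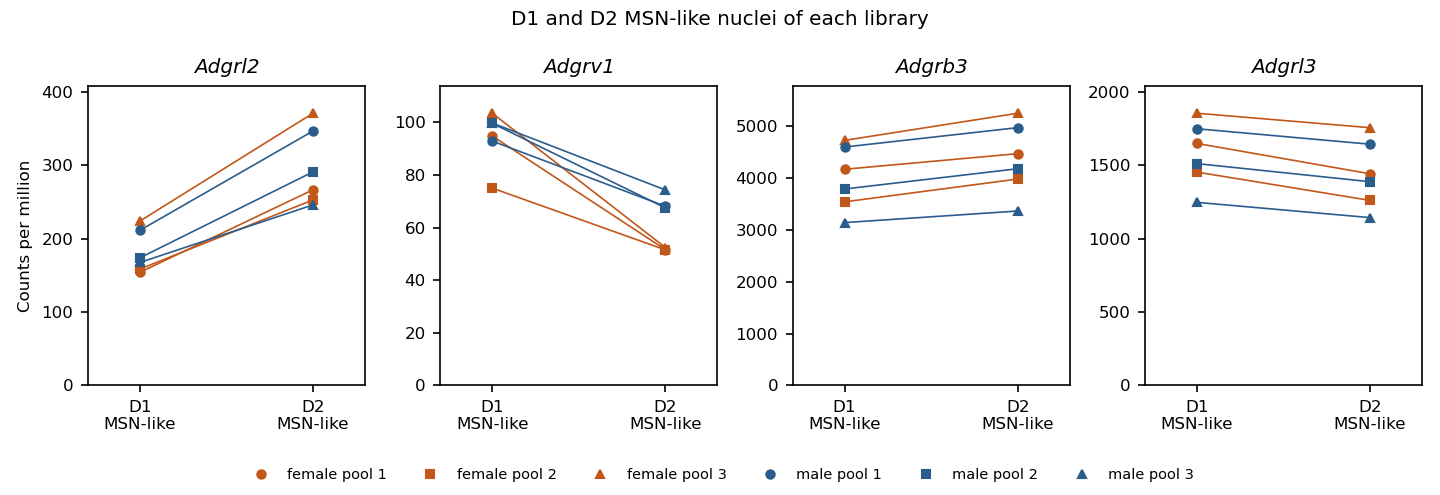
CPM of Adgrl2, Adgrv1, Adgrb3 and Adgrl3 (linear axis from 0) in D1 MSN-like and D2 MSN-like nuclei, with a line for each library, coloured by sex and shaped by pool number. Adgrl2 is lower and Adgrv1 higher in D1 MSN-like nuclei in 6 of 6 libraries.

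No adhesion receptor was called between females and males, the question in the study's title. Over all nuclei 0 of 21 members passed in edgeR, against 0.0432% of 16202 genes, with 3 at an unadjusted p under 0.05 (7.46% of all genes) and 0 called by DESeq2. In 16 fits (all nuclei and 15 classes or clusters with at least 20 nuclei in every library) 0 of 165 tests on members passed, against 0.0883% of all tests. The unadjusted p was under 0.05 in 9 of the 165 (6.05% of all tests), the sexes did not overlap in 11 (6.57% of all tests), and the smallest adjusted p was 0.470. Over all nuclei 9 members were higher and 12 lower in females, with a median log2 fold change of -0.03, as over all genes. A p that misses the threshold does not show that the sexes have equal levels.

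The 5 members with the smallest p had these values over all nuclei. Adgra2 had 15.7, 13.8 and 18 CPM in females and 14.7, 10.1 and 11.3 in males, with overlap (log2 fold change 0.47, SE 0.17, edgeR adjusted p = 0.640). Adgrg3, an orphan receptor of myeloid cells, had 10, 8.63 and 7.88 CPM in females and 6.73, 5.89 and 7.42 in males, with no overlap (0.46, SE 0.20). Adgrf4 was near the floor, at 0.89, 0.65 and 0.284 CPM in females and 0.409, 2.01 and 1.88 in males (-0.96, SE 0.35). In set A the Adgrf4 difference was -0.21 and in set B -0.94.

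Adgre1 had 6.67, 6.12 and 3.42 CPM over all nuclei in females and 4.33, 8.73 and 9.03 in males (-0.36, SE 0.20). Adgrl1 had 104, 146 and 151 CPM in females and 153, 103 and 93.8 in males (0.28, SE 0.17). In both genes the sexes overlapped, and the 2 set A libraries lay together. The split by label set was wider for Adgre4, at 5.32 and 6 CPM in the set A libraries and 13.2 to 34.9 in set B.

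Adgrv1 had the smallest p of a single class. Astrocyte-like nuclei of females had 106, 93.4 and 153 CPM of Adgrv1 and those of males had 274, 153 and 141 (log2 fold change -0.68, SE 0.17, unadjusted p = 0.00123, edgeR adjusted p = 0.721). In D2 MSN-like nuclei the female values given above lay below all male values (-0.41, SE 0.13, adjusted p = 0.770), while in D1 MSN-like nuclei they overlapped (-0.07). The interaction of sex with the D1 against D2 difference was called for 0 of 15 members and for 0% of all genes in edgeR, with 1 member at an unadjusted p under 0.05 and 0 called by DESeq2. That member was Adgrv1 (0.38, SE 0.11, unadjusted p = 0.00234, adjusted p = 0.9999).

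**Figure D5:**
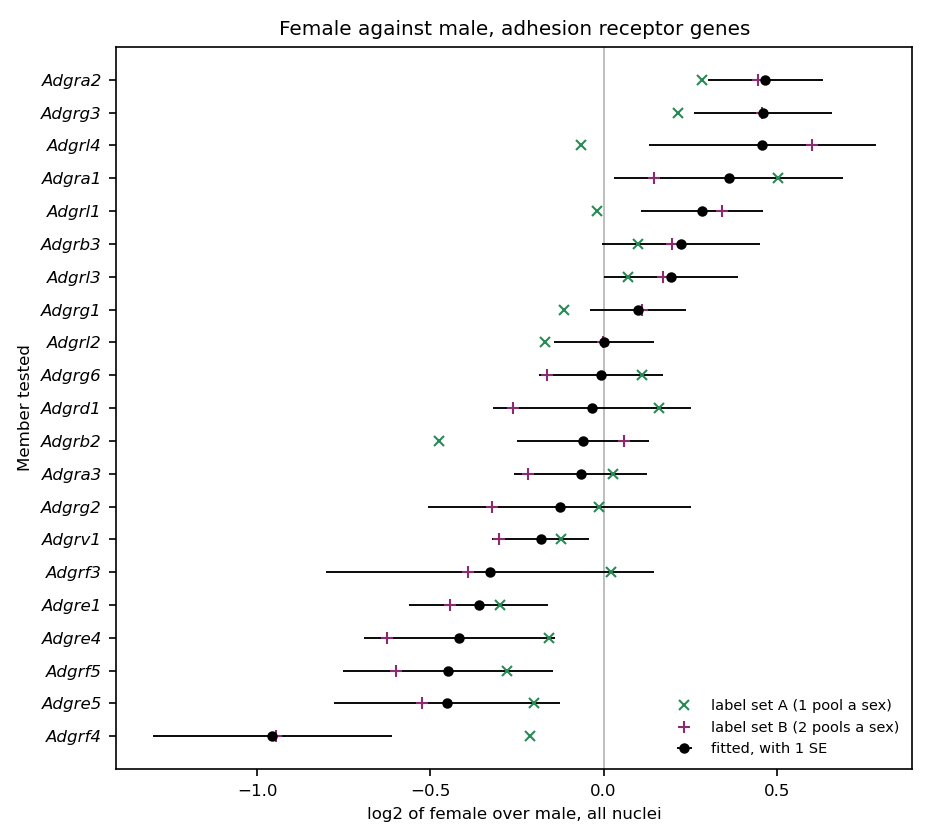
Log2 of the female over the male level for the 21 Adgr genes tested over all nuclei, with the fitted value and 1 SE (black) and the values within label set A (crosses, 1 pool a sex) and set B (plus signs, 2 pools a sex). Fitted values run from -0.96 for Adgrf4 to 0.47 for Adgra2, and 0 of 21 passed the test.

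The remaining members were scarce. Adgrd1, Adgrf2, Adgrf3, Adgrf4, Adgrg2, Adgrg3, Adgrg4, Adgrg5 and both Adgrg7 features did not pass the filter of the fit over 11 classes. Adgrg3 had 1429 UMIs in all, Adgrg2 531 and Adgrd1 371, while Adgrf2 had 129, Adgrf4 118, Adgrg5 73 and Adgrf3 61. Adgrg4 had 1 UMI, and the Adgrg7 features 7 and 56. Since Adgrg7 stands under 2 identifiers, its counts are uncertain. By mean over libraries Adgrg2 was highest in oligodendrocyte-like nuclei (20.1 CPM) and Adgrg3 in astrocyte-like nuclei (19 CPM), among the classes compared. Adgrg3 passed the filter when only the 9 classes held by all libraries entered, and was then higher in astrocyte-like nuclei by 1.66 (SE 0.23, edgeR adjusted p = 4.99e-09) and lower in oligodendrocyte-like (-1.86) and Sst/Npy interneuron-like nuclei (-1.61). Adgre4, an immune receptor by name, was tested over the 11 classes and not called with all libraries. Its highest mean was in cholinergic neuron-like nuclei (34.5 CPM), and its log2 fold change in microglia-like nuclei was -1.27 (SE 0.57, edgeR adjusted p = 0.065).

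Known partners of the receptors were listed by name with earlier results of these data known, and are counted without a test of the list. Of 10 listed partners of the latrophilins (teneurins, FLRT proteins and neurexins) 9 were tested. In D1 MSN-like nuclei 5 were higher (11.3% of all genes), with a list median of 1.5. In D2 MSN-like nuclei 5 were higher (11% of all genes), with a median of 1.25. The largest were the teneurin genes Tenm4 (2.47 in D1 and 2.57 in D2) and Tenm2 (1.95 and 1.97) and the neurexin gene Nrxn3 (1.74 and 1.97). The list median was -2.13 in microglia-like and -1.57 in oligodendrocyte-like nuclei. Between OPC-like and oligodendrocyte-like nuclei 6 partners were higher in OPC-like (14.9% of all genes), among them Nrxn2 (3.01) and Flrt2 (2.53). Of the partners 1, Tenm4, was lower (-1.01), against 11.7% of all genes. None was called between D1 and D2 or between the sexes.

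Partners of the BAI receptors included C1ql1, a secreted ligand gene, which was higher in OPC-like nuclei by 6.05 (SE 0.14, edgeR). Of 11 listed BAI partners 6 were tested. In that class 4 of the 6 were higher (10.1% of all genes) and 1 lower (6.17%), Rtn4rl1, a Nogo receptor homologue (-2.73). Elmo1 and Dock1, which relay BAI signals to Rac, did not move together. Elmo1 was higher in microglia-like (2.07) and lower in astrocyte-like nuclei (-3.62), and Dock1 was lower in microglia-like (-1.38) and higher in astrocyte-like nuclei (2.18).

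Of 7 listed genes that act with ADGRA2 in WNT7 signalling 5 were tested. Wnt7b (3.72), Lrp5 (2.80) and Wnt7a (2.66) were higher in astrocyte-like nuclei (3 of 5, against 14.3% of all genes). OPC-like nuclei had 4 of 5 higher (10.1% of all genes), among them Wnt7b (3.46) and Reck (1.68). In endothelial-like nuclei Lrp5 alone was higher (2.59), and in microglia-like nuclei Lrp5 was higher (2.72) and Reck lower (-1.96). Of 7 listed ligands and partners of the ADGRG receptors 5 were tested. In oligodendrocyte-like nuclei 2 were higher (11.5% of all genes) and 1 lower (15.6%). The higher ones were Cd9 (2.53) and Cd81 (1.04), tetraspanins that bind ADGRG1. Astrocyte-like nuclei had 2 higher (14.3%), among them Lama2 (3.59), a laminin that binds ADGRG6, and 1 lower (12.5%). Endothelial-like nuclei had 2 higher (10.7%), among them Col4a1 (3.53), a collagen chain, and 0 lower (3.33%).

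The Celsr genes encode adhesion receptors of planar cell polarity that do not carry the Adgr name. Celsr1 was higher in astrocyte-like nuclei by 4.49 (SE 0.22, edgeR adjusted p = 1.39e-28). Celsr3 was higher in each of the 5 neuronal classes compared, from 1.18 in D1 MSN-like to 1.77 in cholinergic neuron-like nuclei, and lower in astrocyte-like (-2.12), microglia-like (-2.05) and oligodendrocyte-like nuclei (-1.47). Celsr2 passed the fold limit in no class.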

How the data were processed

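Single-nucleus RNA was measured in 6 libraries. Whole UMI counts of each feature in each barcode were deposited without normalization, made with Cell Ranger 4.0.0 per the file headers. The submitters' processing notes name the genome build rn6, and the word premrna stands in the labels. The handling of intron reads is otherwise not given in the sources used here. With earlier results of these data known, this family was chosen as members and the gene lists were written.

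Nuclei needed 500 UMIs, 300 genes and less than 5% of mitochondrial UMIs. That mitochondrial limit removed 1.55% and 2.28% of barcodes in the set A libraries. In set B it removed 13.1% to 40.7%, the most in female pool 2. Scrublet's own threshold marked 0% to 4.81% per library, so the highest-scoring share expected from loading was removed instead (0.8% per 1000 nuclei, 2.30% to 13.2%). Clustering (scanpy 1.11.5, leidenalg 0.10.2) used 3000 variable genes, 30 components, 20 neighbours and resolution 1, scaled within each library, with the Adgr and list genes among 109 genes left out. It gave 35 clusters. A cluster was named from at least 3 markers of a class (118 of 123 marker genes found). By limits set after the clusters were seen, a cluster was called mixed where a glial candidate's neuron-gene sum passed 0.5 of the median neuronal cluster's, where a list of another lineage had a mean log fold at least 0.5 of the first, or where its median UMI count passed 3 times the lowest of its class. Clusters with no list of 3 markers, tied lists, leading activity genes, or low UMIs and no leading marker kept a number.

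Counts were summed per library and class and tested with edgeR 4.0.16 (R 4.3.3; TMM factors, filterByExpr, quasi-likelihood F test, Benjamini-Hochberg over all genes tested). Class fits had library as a block. Fits of sex had the label set as a term, and the interaction fit had library. Standard errors were taken from the log2 fold change and its F value. Replicates named "1" in both sexes were not paired. Every member passing the filter is named. Values per library are printed for members called higher by at least 2 (log2) in a class, called in a pair of classes, or among the 5 smallest p for sex. Partner genes are named from the 3 largest called changes of a list in a class described. Some list genes are not reported here. Each kind of test was checked on simulated data. Intervals and limits behind a count of 0 (3 counts) cover counting error only. Promoter windows came from RefSeq's GRCr8 table. No coordinate of rn6 is used here. The alternatives were DESeq2 1.42.0, DESeq2 size factors, no low-count filter, 1000 UMIs per nucleus, more doublets removed, another resolution, each library left out, each label set alone, joined classes, no fold limit, and other covariates for sex.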

Additional observations from a re-analysis of the deposited data

How the results depend on the processing

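With each library left out, the calls over all class comparisons ran from 24 to 33 for higher levels (30 with all) and from 16 to 24 for lower levels (24 with all, 16 without female pool 3). Without the fold limit they were 49 and 43, while 2041 to 6609 of all 10614 genes passed in each class. Between D1 and D2 MSN-like nuclei 2 members each way then passed, as did 15.1% of all genes. With label set B alone, where endothelial-like and microglia-like nuclei were in too few libraries to be compared, the calls over classes were 13 and 12. With only the classes held by all 6 libraries, chosen after seeing the data, 18 were higher. The members higher in OPC-like than in oligodendrocyte-like nuclei were 4, and 8 with no low-count filter and 8 with label set A alone. More genes are tested without the filter, and the cause in label set A was not tested. DESeq2 called 27 higher and 32 lower over the classes.

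For single members, 936 of 1013 recomputed values kept direction and side of the threshold, and none reversed. Of the 54 class calls 23 were lost under at least 1 alternative, 15 of them with a library left out. Adgre5 in cholinergic neuron-like nuclei, at 0 UMIs, was lost under every alternative that gave a value, and Adgrv1 in endothelial-like nuclei without each of 5 libraries. Without female pool 3, Adgra2 in astrocyte-like, Drd3 neuron-like and oligodendrocyte-like, Adgra3 in D1 MSN-like, and Adgrg6 in D2 MSN-like, Sst/Npy interneuron-like and cholinergic neuron-like nuclei (-0.74, adjusted p = 0.209) were also lost, the last also without male pool 1, male pool 3 or female pool 2. Adgrg6 in astrocyte-like and Adgra1 in microglia-like nuclei were lost without female pool 1. Adgre4 in cholinergic neuron-like nuclei was called (1.13) without female pool 1.

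No member was called for sex under any alternative run. With the replicate number as a block, with or without label set, the count was 0. The correlation of deviations between libraries of equal number was -0.77, 0.27 and -0.63 across 16202 genes. For numbers 1 and 3 the female and male pools differ in label set, and every such pair was negative. The values of -0.77 and -0.63 therefore cannot tell whether equal numbers pair the libraries. Within set B the pools numbered 2 had 0.27, and female-male pairs of unlike number had 0.30, 0.54 and 0.69. Equal number thus went with no higher correlation there. Endothelial-like, microglia-like and committed precursor-like nuclei, at 149 to 445 nuclei each, limit what depth can show for scarce members.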

Other observations

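Values outside the compared classes add to the picture of several members. These are levels only, with no test. In 21 ependymal-like nuclei, from 2 libraries, Adgrv1 stood at 887 CPM over the pooled UMIs. Fibroblast-like nuclei (74) had 222 CPM of Adgra2 over 2 libraries. Numbered clusters exceeded every named class by mean for Adgrb2, with 142 CPM in cluster 13 and 132 in cluster 9 against 115 in Drd3 neuron-like nuclei. They did so for Adgrl1 too, with 163 CPM in cluster 8 and 169 in cluster 9. The highest named class for Adgrl1 by mean was glutamatergic neuron-like, at 160 CPM, which was not among the classes compared. That mean rests on female pool 3 and male pool 1 alone, both of label set A. In these pools D2 MSN-like nuclei had 166 and 176 CPM of Adgrl1, and D1 MSN-like nuclei 167 and 166. Cluster 13 had a median of 893 UMIs per nucleus, and its Adgrb2 values ran from 70.5 to 318 CPM over 6 libraries.

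The astrocyte-like class joined clusters 4 and 17, and several members were at unlike levels in them. Adgrg2 stood at 1.12 CPM in cluster 4 and 23.4 in cluster 17, and Adgra1 at 8 and 25.2. Adgrv1 ran the other way, at 173 in cluster 4 and 89.0 in cluster 17, as did Adgrl2 at 65.0 and 20.9.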
